A study of Mus musculus with 6 samples.

Results

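Tox, Tox2, Tox3 and Tox4, the 4 genes of the TOX family, were followed together with Bcl6, Prdm1 (which encodes Blimp1) and Ascl2 in mouse regulatory T (Treg) cells. These 7 genes were taken by name, with earlier results of these data known, from a deposited table of 35275 genes, and all 7 were found in it. The table does not name its unit; its values were taken as FPKM, that is fragments scaled to gene length and to the size of the library, because they give whole fragments at annotated lengths for most genes. On that scale levels of different genes can be set side by side. The table covers 3 libraries of Treg cells labelled as Rcor1-deleted and 3 control libraries. The deletion group came from Rcor1fl/flFoxp3YFPcre mice, in which a Cre recombinase joined to YFP and driven from Foxp3 acts on floxed Rcor1. The control group came from Foxp3YFPcre mice, so both groups carry the same Cre allele and differ in the floxed Rcor1 alleles. All mice were male and 6 to 8 weeks old, and cells were enriched for CD4 on a column and then sorted on YFP, which marks Foxp3 expression. The design text calls the 3 libraries of a group independent biological replicates. No source used here says whether animals were pooled.

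TOX proteins bind DNA through an HMG box, a fold that bends DNA. Tox is needed for CD4 T cells to form in the thymus and, in mice, for exhausted CD8 T cells to persist, while Tox2 is known from follicular helper T cells and natural killer cells. Bcl6 and Blimp1 are repressors that hold each other down: Bcl6 drives follicular helper T cells, follicular Treg cells and germinal centre B cells, and Blimp1 drives plasma cells and effector Treg cells, where it promotes Il10. Ascl2 is a basic helix-loop-helix factor that maintains intestinal stem cells and switches on Cxcr5 in mouse follicular helper T cells. Rcor1 encodes CoREST1, a scaffold that holds the demethylase Kdm1a and the deacetylases Hdac1 and Hdac2, and Kdm1a is also a partner of Blimp1. The comparison asks how the levels of these genes differ when Rcor1 is deleted in Foxp3+ cells.

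The libraries held between 18538581 and 22349455 fragments, as recovered from the FPKM values. Rcor1 itself was at 12.5, 13.0 and 14.2 FPKM in deletion libraries 1, 2 and 3, against 16.1, 16.1 and 15.2 FPKM in control libraries 1, 2 and 3. It was lower in every deletion library, by 16.3% on average (limma, adjusted p = 0.0562), which is a weak check of the labels. Values are given per gene, so the floxed exons could not be looked at alone. Why the difference was small was not tested. Foxp3, the defining gene of Treg cells, was at 103 ± 3.1 FPKM in deletion libraries and 95.6 ± 9.4 FPKM in control libraries (SD, n = 3 each). Of 9 markers of eye lens and fat, chosen with earlier results of these data known, 8 were tested and all 8 fell. Of all tested genes 3.08% fell. These 8 passed the filter of at least 1 FPKM in at least 3 libraries through the control libraries, so only a fall could be called. The 9 markers summed to between 0.796 and 1.79 FPKM in deletion libraries, against 136 to 211 FPKM in control libraries. Their part in the results was not tested. The labels name no batch, so an effect of when or how each group was prepared cannot be told apart from that of Rcor1.

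Within the 7 genes the levels spanned about 3 orders: Tox and Tox4 were the highest, Bcl6, Tox2 and Prdm1 lay in the middle, and Ascl2 and Tox3 were barely detected. Tox exceeded 72.1% and Tox4 67.7% of the 11575 tested genes in mean level, whereas Bcl6, Prdm1 and Tox2 exceeded 39.0%, 35.4% and 33.9%. In deletion libraries the order by mean FPKM was Tox, Tox4, Bcl6, Tox2, Prdm1, Ascl2 and Tox3, and in control libraries it was Tox, Tox4, Prdm1, Bcl6, Tox2, Ascl2 and Tox3. Tox lay above Tox4 in every deletion library with no overlap of their ranges, whereas in control libraries the ranges of these 2 genes overlapped. The ranges of Bcl6 and Tox2, and of Tox2 and Prdm1, overlapped in deletion libraries. In control libraries those of Prdm1 and Bcl6, and of Bcl6 and Tox2, overlapped. Within a library, however, Bcl6 was above Tox2 and Tox2 above Prdm1 in 3 of 3 deletion libraries. In control libraries Prdm1 was above Bcl6, and Bcl6 above Tox2, in 2 of 3.

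**Figure D1:**
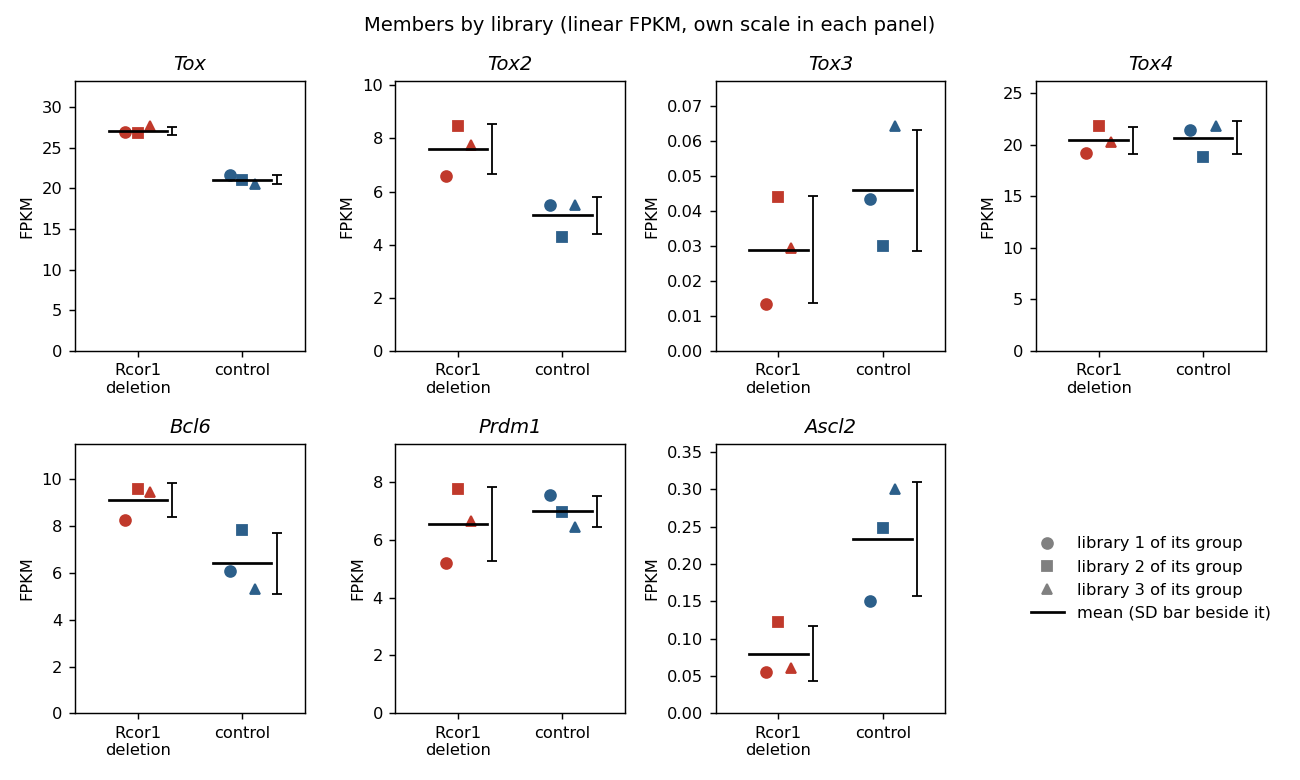
FPKM of the 7 genes in each library, on a linear axis that starts at 0 and has its own scale in each panel, with deletion libraries left of control libraries. Symbols mark libraries 1, 2 and 3 of a group, lines the mean and bars the SD. Tox, Tox2 and Bcl6 lie higher in all 3 deletion libraries than in any control library, Ascl2 lies lower, and Tox3, Tox4 and Prdm1 overlap.

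Tox (ENSMUSG00000041272, chromosome 4, 6686353 to 6991557 on the minus strand of GRCm38) rose in deletion libraries. It was at 26.9, 26.8 and 27.7 FPKM in deletion libraries 1, 2 and 3, against 21.6, 21.1 and 20.6 FPKM in control libraries 1, 2 and 3. The 3 deletion libraries lay close together, and the lowest of them was above the highest control library. The means were 27.1 ± 0.52 and 21.1 ± 0.52 FPKM in deletion and control libraries, a difference of 28.5% and a log2 fold change of 0.35 on the log2(FPKM + 1) scale (SE 0.050, 95% interval 0.23 to 0.47, limma adjusted p = 0.010). The exact permutation p (two-sided, not adjusted) was 0.10 for Tox, as it was for Tox2, Bcl6 and Ascl2. No smaller value is possible with 3 libraries in each group. Of 11575 tested genes, 12.0% changed at an adjusted p under 0.05, 8.95% by rising, and Tox and Tox2 were the 2 of 5 tested members that did. A log2 fold change larger than that of Tox was found in 12.0% of tested genes.

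What set Tox apart among the 7 genes was the closeness of its replicates. Its coefficient of variation was 1.9% in deletion and 2.5% in control libraries. Counting error alone gives 2.1% and 2.5% at the mean number of fragments per library. Summed over a group, the fragments were 6756 and 4939. The other 4 tested members varied between libraries by more than their counting error in both groups, as in Tox4, with 6.3% against 2.1% in deletion libraries. The call of Tox was lost without deletion library 3 (adjusted p = 0.0556) and held when any other library was left out. Scaling the libraries to a common median gene (median-ratio scaling) gave an adjusted p of 0.0261 at a log2 fold change of 0.26. With voom on fragments recovered from the FPKM values, where 6.09% of tested genes rose, the log2 fold change was 0.28 (adjusted p = 0.0193). An antisense gene on the opposite strand of Tox, Gm11802, was at 0.308 FPKM or less in every library.

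Tox2 (ENSMUSG00000074607, chromosome 2, 163203125 to 163324170 on the plus strand) rose too, from fewer fragments and with a wider spread. Deletion libraries 1, 2 and 3 held 6.60, 8.47 and 7.76 FPKM, and control libraries 1, 2 and 3 held 5.51, 4.30 and 5.51 FPKM. Every deletion library was above every control library, though deletion library 1 came within about 1 FPKM of control libraries 1 and 3. The means were 7.61 ± 0.94 and 5.11 ± 0.70 FPKM in deletion and control libraries, and the log2 fold change was 0.50 (SE 0.12, 95% interval 0.22 to 0.78, limma adjusted p = 0.0410). The call was close to the threshold: it was lost whichever library was left out (adjusted p from 0.0537 to 0.129), with median-ratio scaling (0.0691) and with quantile normalization (0.0975). Under all 15 alternatives the log2 fold change was above 0.

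Tox4 (ENSMUSG00000016831, chromosome 14, 52279146 to 52296401 on the plus strand), a widely expressed member that works in a complex with the phosphatase PP1 and Wdr82, did not pass the test. It was at 19.2, 21.8 and 20.2 FPKM in deletion libraries 1, 2 and 3, against 21.4, 18.8 and 21.8 FPKM in control libraries 1, 2 and 3. The groups overlapped fully, and the log2 fold change of -0.02 had a 95% interval from -0.20 to 0.17 (adjusted p = 0.900). Its gene overlaps Mettl3 and Rab2b on the opposite strand, and no source used here says whether the counting used strand, so fragments of these genes may not be fully separated. Mettl3 was at 16.4 to 18.2 FPKM in deletion libraries and 12.6 to 16.3 FPKM in control libraries.

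Tox3 (ENSMUSG00000043668, chromosome 8, 90247040 to 90348343 on the minus strand), best known from neurons and breast epithelium, was close to absent. Deletion libraries 1, 2 and 3 held 1, 3 and 2 fragments of it, and control libraries 1, 2 and 3 held 3, 2 and 4 fragments. That is 6 of 62908730 fragments in the deletion group and 9 of 59048942 in the control group, a ratio of 0.626 with a 95% counting interval from 0.183 to 1.97. A difference in Tox3 was not detectable at this depth.

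As a share of the summed FPKM of the 4 TOX genes, Tox made up 51.0%, 46.9% and 49.7% in deletion libraries 1, 2 and 3, against 44.5%, 47.6% and 43.0% in control libraries 1, 2 and 3. Tox2 made up between 12.5% and 14.8% in deletion libraries and between 9.72% and 11.5% in control libraries. Tox4 made up between 36.3% and 38.2% in deletion libraries and between 42.6% and 45.4% in control libraries, so the shares of Tox2 and Tox4 did not overlap between groups and that of Tox did. Ratios within a library do not change when the library is scaled by 1 factor, although quantile normalization can change them. They were computed on FPKM as deposited. The ratio of Tox to Tox4 averaged 1.33 ± 0.091 in deletion libraries and 1.03 ± 0.087 in control libraries, and that of Tox2 to Tox4 averaged 0.372 ± 0.025 and 0.246 ± 0.016. Neither ratio overlapped between groups, whereas the ratio of Tox2 to Tox (0.281 ± 0.035 in deletion and 0.242 ± 0.033 in control libraries) did. How often shares or ratios of other genes do not overlap was not computed. Of single tested genes, 39.1% did not overlap between groups.

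Bcl6 (ENSMUSG00000022508, chromosome 16, 23965052 to 23988852 on the minus strand) was higher in every deletion library but did not pass the threshold. It was at 8.28, 9.60 and 9.45 FPKM in deletion libraries 1, 2 and 3, against 6.08, 7.85 and 5.32 FPKM in control libraries 1, 2 and 3. Control library 2 stood apart from the other control libraries and lay just under deletion library 1. The means were 9.11 ± 0.72 and 6.42 ± 1.3 FPKM in deletion and control libraries, with a log2 fold change of 0.46 (SE 0.13, 95% interval 0.15 to 0.77, limma adjusted p = 0.0611). Its unadjusted p of 0.00967 is of a kind that is common here, since 32.6% of tested genes had an unadjusted p under 0.05. Without control library 2 the log2 fold change was 0.59 and the adjusted p 0.0148. With any other library left out the adjusted p lay between 0.101 and 0.172. Across the table, 39.1% of tested genes showed no overlap between groups, with the deletion libraries above in 29.3% and below in 9.79%, so this order alone is common in these data.

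Prdm1 (ENSMUSG00000038151, chromosome 10, 44437177 to 44528501 on the minus strand) did not follow Bcl6 in either direction. Deletion libraries 1, 2 and 3 held 5.21, 7.76 and 6.63 FPKM, and control libraries 1, 2 and 3 held 7.53, 6.97 and 6.45 FPKM. The groups overlapped, and deletion library 1 was the lowest of all 6. The log2 fold change was -0.09 (SE 0.13, 95% interval -0.40 to 0.21, adjusted p = 0.643), an interval that leaves room for a moderate change either way. It was 0.04 without deletion library 1 and -0.21 without deletion library 2.

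Set against each other within a library, Bcl6 exceeded Prdm1 in every deletion library and in 1 of the 3 control libraries. The ratio of Bcl6 to Prdm1 was 1.59, 1.24 and 1.42 in deletion libraries 1, 2 and 3, against 0.807, 1.13 and 0.826 in control libraries 1, 2 and 3. The groups did not overlap, and control library 2 lay nearest to the deletion libraries. How often such ratios of other genes do not overlap was not computed, and 39.1% of single tested genes did not overlap. The means were 1.42 ± 0.18 and 0.920 ± 0.18 in deletion and control libraries. The ratio of Tox2 to Prdm1 moved alike, at 1.18 ± 0.089 and 0.735 ± 0.12.

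**Figure D2:**
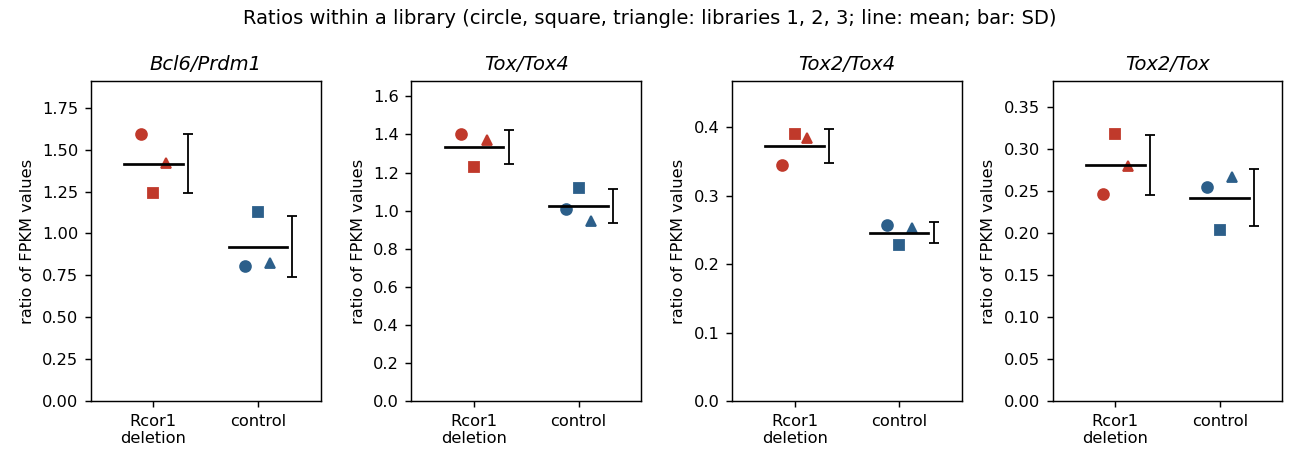
Ratios of FPKM values within each library, on linear axes that start at 0, with deletion libraries left of control libraries, lines for means and bars for SD. The ratios Bcl6/Prdm1 (1.24 to 1.59 in deletion, 0.807 to 1.13 in control libraries), Tox/Tox4 and Tox2/Tox4 do not overlap between groups, and Tox2/Tox does.

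The Bcl6 and Prdm1 promoters are shown because these factors are known to repress each other and, in germinal centre B cells, Bcl6 is known to repress its own gene. The sequences are the 250 bases before each start site in RefSeq's table (build GRCm38.p6), and capitals mark matches to TTCNNNGAA, the palindrome bound by STAT factors, which also covers the Bcl6 motif TTCCTNGAA. The distal start site of Bcl6 coincides with the 5′ end of the gene, and the proximal one lies inside its annotated span. The Prdm1 start site also lies inside the annotated span of its gene. All 3 windows are on the minus strand.
Bcl6, distal, chr16:23988853-23989102: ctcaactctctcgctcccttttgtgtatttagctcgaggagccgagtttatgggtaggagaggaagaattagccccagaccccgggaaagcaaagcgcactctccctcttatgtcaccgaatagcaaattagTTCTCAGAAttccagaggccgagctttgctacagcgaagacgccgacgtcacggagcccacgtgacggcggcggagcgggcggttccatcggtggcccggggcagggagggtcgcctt
Bcl6, proximal, chr16:23981284-23981533: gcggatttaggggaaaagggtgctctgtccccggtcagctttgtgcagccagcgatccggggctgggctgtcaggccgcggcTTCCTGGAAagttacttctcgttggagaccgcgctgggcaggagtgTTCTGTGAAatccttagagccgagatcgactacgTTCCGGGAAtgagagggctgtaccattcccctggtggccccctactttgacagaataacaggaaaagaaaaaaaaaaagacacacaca
Prdm1, chr10:44458749-44458998: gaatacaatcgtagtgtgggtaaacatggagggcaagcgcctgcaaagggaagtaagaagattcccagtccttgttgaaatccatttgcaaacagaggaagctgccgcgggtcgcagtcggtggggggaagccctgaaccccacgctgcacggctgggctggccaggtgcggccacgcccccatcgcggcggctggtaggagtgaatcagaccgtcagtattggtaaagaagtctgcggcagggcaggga

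The proximal Bcl6 window held 3 matches to TTCNNNGAA, which start 168, 122 and 88 bases before the start site, and the distal window held 1, which starts 118 bases before it. The match TTCCTGGAA in the proximal window is also a match to the Bcl6 motif TTCCTNGAA, and it overlaps the only match to the NFAT core TGGAAA in the windows of these genes. On both strands of all 32851 windows of this length in the table, TTCNNNGAA was present in 7.02% and TTCCTNGAA in 1.31%. The Prdm1 window held no match to either motif, and no window of these genes held the Blimp1 core AGNGAAAG (7.30% of all windows) or the Gfi1 motif (0.776%). TGGAAA was present in 18.6% of all windows and the E-box CAGCTG, bound by factors such as Ascl2, in 13.0%. CAGCTG was found once, in the Tox3 window, where it starts 218 bases before the start site. The table has 11 windows for 6 of the 7 genes and none for Tox, whose promoter was therefore not searched. The windows of Tox2, Tox4, Prdm1 and Ascl2 held none of the motifs searched.

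Ascl2 (ENSMUSG00000009248, chromosome 7, 142966829 to 142969264 on the minus strand) was barely detected and lower in every deletion library. Deletion libraries 1, 2 and 3 held 2, 4 and 2 fragments of it (0.0555, 0.122 and 0.0613 FPKM), and control libraries 1, 2 and 3 held 5, 8 and 9 fragments (0.15, 0.249 and 0.301 FPKM). The ratio per fragment sequenced was 0.341, with a 95% counting interval from 0.131 to 0.796 that covers counting error only. Ascl2 and Tox3 did not pass the filter of at least 1 FPKM in at least 3 libraries. In a fit with no filter Ascl2 had an adjusted p of 0.108, so the difference did not pass the threshold. It rests on 8 fragments in the deletion group and 22 in the control group.

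**Figure D3:**
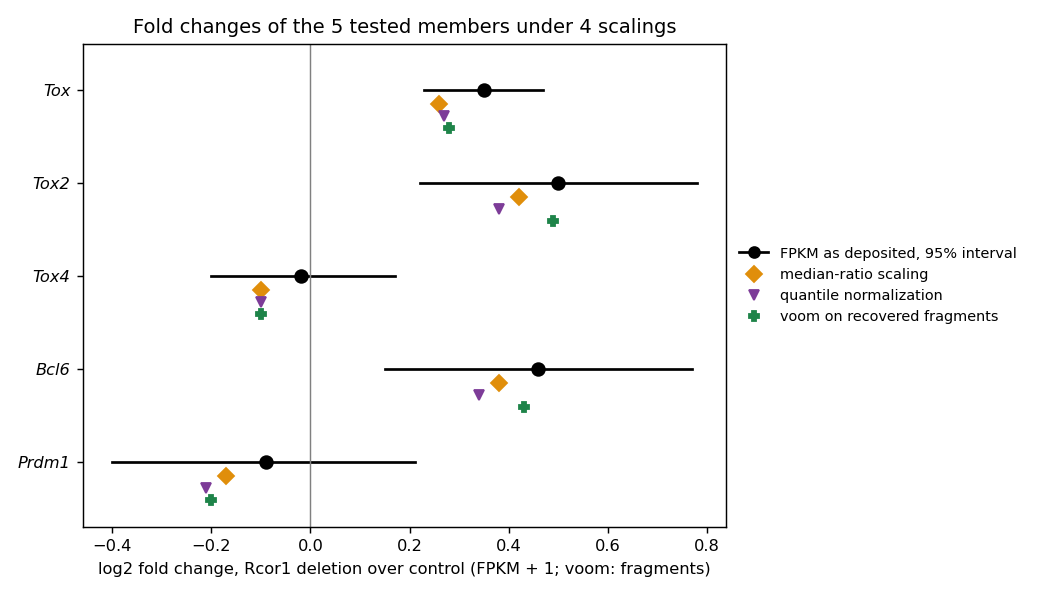
Log2 fold changes of Rcor1 deletion over control for the 5 members that passed the filter on low values. Black points and lines are limma estimates with 95% intervals on FPKM as deposited, and coloured symbols are the estimates with median-ratio scaling, quantile normalization and voom on recovered fragments. Tox, Tox2 and Bcl6 stay above 0 under all 4, and Tox4 and Prdm1 stay below 0 under all 4.

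Because bulk RNA was sequenced, a change in the share of cells that express a gene and a change in the amount per cell cannot be told apart. Bcl6 and Prdm1 are also genes of B and plasma cells, so markers of those cells are given here. The 12 B cell markers summed to between 54.9 and 65.3 FPKM in deletion libraries, against 31.4 to 53.1 FPKM in control libraries, and 1 of 8 tested, Cd22, rose. Of these 8, 3 had an unadjusted p under 0.05 (32.6% of all tested genes), and 5 were higher in every deletion library than in any control library (29.3% of all). Their median log2 fold change was 0.57, against 0.08 for all tested genes, and none of the 12 was at 0 in all libraries. By library, the B cell sum was 65.3, 57.3 and 54.9 FPKM in deletion libraries 1, 2 and 3. In control libraries 1, 2 and 3 it was 31.4, 43.0 and 53.1 FPKM. The 8 plasma cell markers summed to 1011, 1340.2 and 1426 FPKM in deletion libraries 1, 2 and 3. In control libraries 1, 2 and 3 they summed to 631, 1668 and 539 FPKM, and 1 of 8, Ighg1, rose. Of the 8, 6 had an unadjusted p under 0.05, and the median log2 fold change was 0.47. The largest part of each sum is the immunoglobulin gene Igha, at 615 ± 169 FPKM in deletion and 629 ± 443 FPKM in control libraries. In deletion library 1 it made up 419.6 of 1011 FPKM. Jchain, which joins secreted antibodies, was at 448 ± 46 FPKM in deletion and 235 ± 153 FPKM in control libraries (adjusted p = 0.0988), and the plasma cell chaperone gene Mzb1 at 23.4 ± 2.5 and 12.9 ± 6.9 FPKM (adjusted p = 0.103). Thymocyte markers, whose cells express Tox, summed to between 29.7 and 33.5 FPKM in deletion libraries and between 25.8 and 37.4 FPKM in control libraries, and 0 of 4 tested passed the threshold in limma or voom (0 at an unadjusted p under 0.05, median log2 fold change 0.24). The part of these cells in the levels of the members was not tested.

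Of 19 genes of follicular helper T cells, the members themselves left out, 4 rose and 0 fell, where 8.95% of all tested genes rose and 3.08% fell. The list's median log2 fold change was 0.08, the same as the 0.08 of all tested genes. Cd40lg, the ligand with which T cells help B cells, rose to 29.6 ± 1.9 FPKM in deletion libraries, against 19.9 ± 0.59 FPKM in control libraries (adjusted p = 0.00474), and kept its call under all 15 alternatives. The signalling receptor Slamf6 rose to 86.1 ± 3.6 FPKM, against 66.7 ± 3.4 FPKM in control libraries. Sh2d1a, the adaptor SAP of that receptor family, and the inhibitory receptor Btla rose by less, with log2 fold changes of 0.27 and 0.25. Their calls were lost with median-ratio scaling, under which 2 of the 19 rose. Of the other 15 genes, 2 had an unadjusted p under 0.05 and did not pass. The transcription factor gene Maf was at 32.9 ± 6.4 FPKM in deletion and 24.8 ± 1.9 FPKM in control libraries (adjusted p = 0.101), and the coactivator gene Pou2af1 at 13.7 ± 1.4 and 10.6 ± 1.5 FPKM (adjusted p = 0.0929). Cxcr5, the homing receptor, was at 11.2 ± 1.7 FPKM in deletion and 10.9 ± 0.27 FPKM in control libraries (adjusted p = 0.915), and Pdcd1, which encodes PD-1, at 37.7 ± 5.1 and 37.0 ± 2.6 FPKM (adjusted p = 0.915). With a library left out between 1 and 3 of the 19 rose: Slamf6 was lost without deletion library 2 or control library 1, Btla unless control library 2 was the one left out, and Sh2d1a each time.

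Exhaustion-associated genes rose in 7 of 21 tested cases and fell in 0, where 8.95% of all tested genes rose and 3.08% fell. The list's median log2 fold change was 0.23. Nr4a1, an orphan nuclear receptor induced by the T cell receptor, rose to 161 ± 5.8 FPKM in deletion libraries, against 95.5 ± 22 FPKM in control libraries (log2 fold change 0.77, adjusted p = 0.0222). Id3, an inhibitor of E proteins, rose to 61.3 ± 9.2 FPKM, against 36.7 ± 5.2 FPKM in control libraries. The inhibitory receptors Cd160 and Cd200r1 rose to 7.70 ± 0.32 and 17.1 ± 2.0 FPKM, against 5.41 ± 0.17 and 11.3 ± 1.3 FPKM in control libraries. The ectoenzyme gene Entpd1, which encodes CD39, rose to 10.9 ± 0.88 FPKM, against 8.08 ± 0.43 FPKM in control libraries (adjusted p = 0.0256). Other inhibitory receptors of the list did not pass. Tigit was at 78.1 ± 17 FPKM in deletion and 62.6 ± 3.3 FPKM in control libraries (adjusted p = 0.206), Lag3 at 27.4 ± 8.4 and 24.4 ± 0.96 FPKM (0.675), Havcr2 at 2.87 ± 0.96 and 2.39 ± 0.34 FPKM (0.567), and Ctla4 at 219 ± 33 and 208 ± 36 FPKM (0.764). With median-ratio scaling or quantile normalization 5 rose, and with the replicate number as a block 1 rose. Voom called 7 that rose and 1 that fell. The count of 7 rested on the whole set of libraries: without deletion libraries 1, 2 and 3 it was 3, 1 and 2, and without control libraries 1, 2 and 3 it was 1, 7 and 2. Nr4a1 kept its call only when control library 2 was left out, Id3 without that library or deletion library 3, and Cd200r1 without that library or deletion library 1. Cd160 lost its call without deletion library 3 and kept it when any other library was left out.

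The lists around Blimp1 and Bcl6 had medians close to the 0.08 of all tested genes or below it, where 8.95% of all tested genes rose and 3.08% fell. Of 17 effector Treg genes linked to Blimp1, 3 rose and 0 fell, with a median of 0.08. They were Itgae, the integrin chain CD103 (61.7 ± 9.4 FPKM in deletion and 40.2 ± 2.4 FPKM in control libraries), the alarmin receptor Il1rl1 (9.73 ± 0.091 and 7.09 ± 0.26 FPKM) and the inhibitory receptor Klrg1 (22.5 ± 0.88 and 17.9 ± 1.1 FPKM). Il10 was at 10.9 ± 3.1 FPKM in deletion and 10.1 ± 3.4 FPKM in control libraries (adjusted p = 0.793). Without deletion library 3, 0 of the 17 rose. Klrg1 was also lost with median-ratio scaling and without deletion library 1, deletion library 2 or control library 1, and Itgae without control library 1 or 3.

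Of 14 tested genes that Blimp1 represses in lymphocytes, 4 rose and 1 fell, with a median of 0.01. The cytokine gene Ifng rose to 10.6 ± 1.6 FPKM in deletion libraries, against 5.92 ± 0.50 FPKM in control libraries, and the immediate early gene Fos to 218 ± 18 FPKM, against 133 ± 16 FPKM. Both kept their calls under all 15 alternatives. Ccr7, the lymph node homing receptor, fell to 139 ± 7.4 FPKM in deletion libraries, against 205 ± 19.6 FPKM in control libraries (log2 fold change -0.56, adjusted p = 0.0101), and it too kept its call each time. Id3 and Tbx21 also rose, and they kept their calls under 9 and 4 of the 15 alternatives. Without a given library 2 or 3 of the 14 rose.

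Ccr7 is also among 16 genes that Bcl6 represses in T cells, of which 2 rose and 2 fell, with a median of 0.09. The other fall was Il2rb, a chain of the IL-2 receptor, at 299.6 ± 12 FPKM in deletion and 379.7 ± 4.9 FPKM in control libraries (adjusted p = 0.00968). Those that rose were Gpr183, a receptor for oxysterols (20.4 ± 2.1 and 13.7 ± 1.4 FPKM), and Tbx21, which encodes T-bet (6.44 ± 0.25 and 4.17 ± 1.0 FPKM). Both rises were lost when any 1 of deletion libraries 1, 2 and 3 or control library 1 was left out, and that of Tbx21 also without control library 2. With median-ratio scaling 1 rose and 4 fell.

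Among 27 tested regulators known to act upstream of the members, 2 rose and 1 fell, with a median of 0.06. Of all tested genes 8.95% rose and 3.08% fell. Gfi1, a repressor that works through CoREST, rose to 34.2 ± 3.5 FPKM in deletion libraries, against 12.1 ± 0.29 FPKM in control libraries (log2 fold change 1.42, adjusted p = 3.88e-04), and Nr4a1, given above, was the other. Trib2, a pseudokinase, fell to 69.2 ± 1.1 FPKM, against 89.6 ± 11 FPKM in control libraries, a call lost with quantile normalization and kept, among the libraries left out in turn, without control library 2 or 3. Foxp3, Irf4 and Batf did not pass, with log2 fold changes of 0.11, -0.10 and 0.08. Under the alternatives that leave out a library, between 1 and 4 rose.

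**Figure D4:**
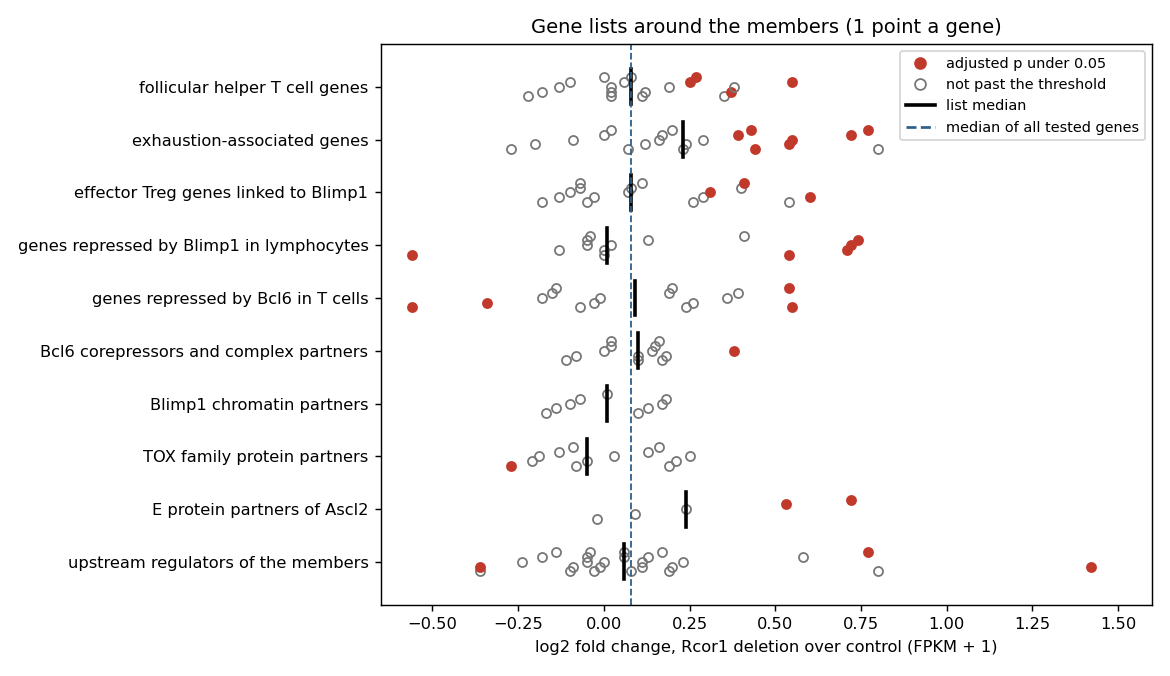
Log2 fold changes of Rcor1 deletion over control for the tested genes of 10 lists around the members, 1 point a gene, with filled points past an adjusted p of 0.05. Black bars are list medians and the dashed line is the median of all tested genes, 0.08. The medians lie between -0.05 and 0.24, and Gfi1, at 1.42, is the point farthest to the right.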

How the data were processed

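The authors deposited 1 table of values taken here as FPKM (inferred from the values, since the header names no unit), 1 column for each of 6 libraries, and 0 columns were left unused. The submitters' processing notes name STAR and mm10. How fragments were counted, with which annotation, strand setting and filters, is not stated in the sources used here. Of 35275 identifiers, 34490 matched GENCODE M21 (GRCm38). Library totals and whole fragments were recovered from the values: of 21898 genes above 0, 15336 (70.0%) were whole within 0.01 fragments at the longest transcript, 6561 at a length solved from the values, and 1 was not. Intervals on fragments are exact binomial (95%) and cover counting error only.

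The test was limma 3.58.1 (R 4.3.3) with a variance trend on log2(FPKM + 1), which understates changes of low genes, for the 11575 genes that reached 1 FPKM in 3 or more libraries. Tests were two-sided, with Benjamini-Hochberg adjustment over all tested genes and a threshold of 0.05. Of these genes 1392 (12.0%) changed. The members and lists were chosen with earlier results of these data known. From each list up to 4 called genes with the smallest p were named, or 2 where none was called; Cxcr5, Pdcd1, Maf, Pou2af1, Entpd1, Tigit, Ctla4, Havcr2, Lag3, Igha, Jchain, Mzb1, Il10, Foxp3, Irf4, Batf, Cd22, Ighg1, Mettl3, Rab2b and Rcor1 were named besides, in most cases after their values were seen. On fragments simulated at the totals of this comparison for 11468 genes, the test recovered 61 of 99 genes changed 1.5-fold and 82 of 98 changed 2-fold, with 6 false calls among 149. Simulated rises and falls were equally many and no library was shifted, whereas 8.95% of tested genes rose and 3.08% fell in the data. The count of false calls therefore does not carry over to the data. The ratios of means of Tox, Tox2 and Bcl6 (1.29, 1.49 and 1.42) were below the smallest fold simulated.

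The alternatives were pseudocounts of 0.1 and 5, no filter or one of 5 FPKM, median-ratio scaling, quantile normalization, no variance trend, voom on recovered fragments, the replicate number as a block, and each library left out.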

Additional observations from a re-analysis of the deposited data

How the results depend on the processing

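Of 15 alternatives, Tox kept its call under 13, Tox2 under 4, and Bcl6 gained a call under 1, without control library 2. Log2 fold changes with each library left out lay between 0.33 and 0.37 for Tox, 0.40 and 0.58 for Tox2, 0.35 and 0.59 for Bcl6, -0.08 and 0.02 for Tox4, and -0.21 and 0.04 for Prdm1, so the direction of the last 2 is not settled. Tox2 lost its call with no filter on low values (0.50), quantile normalization (0.38), median-ratio scaling (0.42) and voom (0.49, adjusted p = 0.0520); the cause was not tested. The count of changed genes was 1392, and 844 with no filter on low values, 868 with quantile normalization, and between 336 and 1942 with a library left out. Rising genes were 1036 of 1392 as deposited, 559 of 1191 with median-ratio scaling, 473 of 868 with quantile normalization and 705 of 1435 with voom; scaling moves the median log2 fold change of all genes from 0.078 to 0.002 or -0.005.

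Replicate numbers are shared by the groups, but no source used here says that they pair libraries, so they were not taken as pairs. Deviations of same-numbered libraries from their group means had correlations across genes of 0.211, -0.135 and -0.162 for numbers 1, 2 and 3. Deletion library 1 correlated best with control library 1, and deletion libraries 2 and 3 with control libraries 3 and 2. These values cannot decide pairing, because deviations cancel within a group and some library always correlates best. With the replicate block 404 genes changed, and Tox (0.35, adjusted p = 0.0617) and Tox2 (0.50, adjusted p = 0.112) lost their calls.

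For other genes and list counts, 482 of 684 values kept their side of the threshold or stayed within 1.5 times, 108 lost a call, 94 counts moved by more and 0 changed direction. A filter of 5 FPKM gave no value for genes below it, such as Tcf4 and Bcorl1. At 1 to 9 fragments a library, Tox3 and Ascl2 are limited by depth.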

Other observations

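Among all tested genes 8.95% rose and 3.08% fell. Of 13 proteins known to work with TOX proteins, 0 rose and 1 fell, with a median log2 fold change of -0.05. With median-ratio scaling, and with voom, 3 of the 13 fell. Wdr82, which joins Tox4 in the PP1 complex, fell to 84.3 ± 4.8 FPKM in deletion libraries, against 102 ± 3.3 FPKM in control libraries (limma adjusted p = 0.0317), a call that held without control library 2 and was lost when any other library was left out. Of 13 corepressors and partners of Bcl6, 1 rose, Bcorl1, at 2.64 ± 0.12 FPKM in deletion and 1.81 ± 0.17 FPKM in control libraries, a call lost with median-ratio scaling and when any library but control library 2 was left out. Of 9 chromatin partners of Blimp1, 0 passed limma's threshold, 3 had an unadjusted p under 0.05 and voom called 1 that fell. Hdac1 was at 134 ± 3.3 and 119 ± 3.0 FPKM and Kdm1a at 39.2 ± 1.2 and 34.5 ± 1.4 FPKM in deletion and control libraries (adjusted p = 0.0613 and 0.0763). Of 5 tested E proteins and Id factors, with which Ascl2 pairs or competes, 2 rose: Id3, and Tcf4 at 1.98 ± 0.071 FPKM in deletion and 1.07 ± 0.20 FPKM in control libraries. Tcf4 lost its call when any 1 of the deletion libraries or control library 1 was left out.

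Among 10287 named tested genes, the profiles most like each member over the 6 libraries were found by the root mean square difference of centred log2(FPKM + 1) values, as a description. For Tox they were Gtpbp10 (0.020), Klhl21 (0.021) and Trub2 (0.023), for Tox2 Atcay (0.047), Kdelc1 (0.049) and Magohb (0.051), and for Bcl6 Prag1 (0.029), the circadian clock gene Per1 (0.037) and Trib1 (0.045). Per1 was at 24.8, 30.4 and 29.7 FPKM in deletion libraries 1, 2 and 3, against 19.9, 24.0 and 17.8 FPKM in control libraries 1, 2 and 3, so control library 2 was the highest control library, as for Bcl6. For Tox4 they were Slc19a1, Mast2 and Ube2g2, and for Prdm1 Kif13a, Bmp7 and Abhd4, none of which passed the test.

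The other marker lists held no called gene among 7 tested CD8 T and natural killer cell genes and 6 tested myeloid and dendritic cell genes (limma and voom, 0 at an unadjusted p under 0.05 in each). Myeloid and dendritic markers varied most between libraries, from 5.94 to 78.0 FPKM in sum in deletion libraries and from 9.77 to 45.6 FPKM in control libraries. Of 5 tested innate lymphoid and epithelial genes 2 fell, the keratins Krt8 and Krt18. Both were below 1 FPKM in every deletion library and passed the filter only through the control libraries. Only a fall could therefore be called for them. Of 8 Treg markers, Ikzf2 rose (0 rose with median-ratio scaling) and Cd3g fell, with sums of 1534 to 1556 FPKM in deletion and 1520.1 to 1706 FPKM in control libraries.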
